A study of Mus musculus with 6 samples.

Results

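The 10 genes described here handle iron inside the cell: the ferritin subunits Fth1 and Ftl1, the importers Tfrc and Slc11a2, the metalloreductases Steap3 and Steap4, the exporter Slc40a1 with the ferroxidase Cp, and the iron regulatory proteins Aco1 and Ireb2. They were chosen by function and symbol from the 54532 genes of the deposited table, with earlier results of the same comparison known, and all 10 were found in it. MC3T3-E1 is a mouse pre-osteoblast cell line that lays down mineralized matrix in osteogenic medium, which here held β-glycerophosphate, ascorbic acid and dexamethasone. RNA was sequenced after 3 days in this medium alone (the control group, 3 samples) or in this medium with 0.2 mM metformin, a biguanide that lowers blood glucose (the metformin group, 3 samples). Dose and time come from the study's text, as the sample labels state neither, and both groups carried the same osteogenic factors, so the comparison is of metformin on top of induction. The methods call the 3 samples of a group biological replicates, and neither the methods nor the labels say whether they came from separate passages or days, so the spread between them is that of these samples of 1 cell line. The comparison asks how metformin moved the transcripts of iron handling during osteogenic induction.

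Iron enters most cells bound to transferrin through the transferrin receptor (Tfrc), is reduced in the endosome by a STEAP metalloreductase, crosses into the cytosol through DMT1 (Slc11a2), and is then used, stored in ferritin or exported by ferroportin (Slc40a1), with a copper ferroxidase such as ceruloplasmin (Cp) oxidizing it outside. The iron regulatory proteins IRP1 (Aco1) and IRP2 (Ireb2) read the iron supply and bind a hairpin, the iron responsive element, when iron is scarce. Binding in the 5′ untranslated region blocks translation, as in ferritin and ferroportin mRNA, and binding in the 3′ untranslated region protects the mRNA from decay, as in Tfrc. RNA levels therefore report one layer of this system, and protein was not measured in these files. In bone, differentiating osteoblasts both need iron, for the hydroxylases that mature collagen, and are harmed by an excess of it.

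The hairpins are printed here because they set which of the 10 genes are known to be read by the iron regulatory proteins. The untranslated regions of GENCODE M21 (GRCm38) were searched for C, 5 bases, CAGTGN and 5 bases, with at least 4 of the 5 stem pairs formed, G with T included. A match was present in 5 of the 10 genes and in 5.07% of the 21179 coding genes searched, or 0.76% where all 5 pairs were needed. Each line gives the gene, the end of the transcript and the place, and the capitals mark the loop letters CAGTGN.

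Fth1 5′, chr19:9982733-9982759, plus strand: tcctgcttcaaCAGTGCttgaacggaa
Ftl1 5′, chr7:45459780-45459806, minus strand: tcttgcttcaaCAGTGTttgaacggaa
Slc40a1 5′, chr1:45925466-45925492, minus strand: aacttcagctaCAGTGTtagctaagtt
Tfrc 3′ hairpin 1, chr16:32631220-32631246, plus strand: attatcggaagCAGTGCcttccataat
Tfrc 3′ hairpin 2, chr16:32631599-32631625, plus strand: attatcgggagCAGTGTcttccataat
Tfrc 3′ hairpin 3, chr16:32631664-32631690, plus strand: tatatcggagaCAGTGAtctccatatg
Tfrc 3′ hairpin 4, chr16:32631711-32631737, plus strand: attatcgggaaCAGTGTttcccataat
Slc11a2 3′, chr15:100395154-100395180, minus strand: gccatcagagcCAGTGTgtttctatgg

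The ferritin hairpins lie in the 5′ regions and have the same upper stem letters around the loop. The 4 Tfrc matches found lie within 518 bases of its 3′ region, and a hairpin that departs from the pattern would have been missed. The Slc11a2 match forms 4 stem pairs and is in 1 of its 6 annotated coding transcripts searched, the form known to carry the element. The Fth1 match is in 4 of 5 such transcripts, that of Ftl1 in 1 of 2 and that of Slc40a1 in 1 of 4. Each Tfrc match is in 1 of 3. The deposited values are per gene and do not separate the forms. No match of this form was found in Steap3, Steap4, Cp, Aco1 or Ireb2, which says only that these letters were not in the windows searched.

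Expression is given as FPKM, the reads of a gene scaled by its length and by the effective size of the library, so levels can be set beside each other between genes. The recovered depth was 18399861 to 20652437 reads per control sample and 19256672 to 22111790 per metformin sample. Fold changes are metformin against control on the log2(FPKM + 1) scale with their SE from limma, and this scale understates the change of genes at a few FPKM, so the ratio of mean FPKM is given as well. Because the 10 genes were proposed with this comparison known, their values are a description and no p-value is given for them. A gene is called where its adjusted p is under 0.05 over the 12681 genes tested, those with a mean of at least 0.5 FPKM, and all 10 iron handling genes passed this limit.

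One control library differed from the rest. Control replicate 1 had Pearson correlations across genes of 0.960 and 0.952 with control replicates 2 and 3, which had 0.988 with each other, and the metformin samples had 0.992. Its deviation from the other controls followed GC content across genes, with a Spearman rho of -0.668. Among the 10 genes it lay above both other controls for Tfrc, Steap4, Slc40a1, Cp and Ireb2, whose GC content is 39.0% to 44.7%, below both for Fth1, Ftl1 and Steap3, at 49.95% to 58.1%, and between them for Slc11a2 and Aco1. The 10 genes and the counts by list of iron and related genes are given with and without it. No pair of samples was a repeat deposit, since the lowest median chi-square per gene of any pair of the 6 samples was 1.14 against 0.455 for counting alone.

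Of the 10 genes, 4 were called lower with metformin (Steap4, Slc40a1, Steap3 and Slc11a2) and 0 were called higher by limma. Over all genes tested 9.28% were called lower and 13.2% higher. At an unadjusted p under 0.05 by limma the counts were 5 lower and 0 higher, beside 2088 and 2452 of the 12681 genes tested. Voom on the recovered reads called 4 lower and 0 higher, beside 1237 and 1776 of all genes. Limma without control replicate 1 called 5 lower and 2 higher, beside 2587 and 2974 of all genes. All 3 metformin samples lay below all 3 controls for 5 of the 10, against 20.5% of the genes tested, and above them for 2, against 23.6%. The comparison itself chose the genes, so these shares are set side by side and nothing is read from them. The median log2 fold change was -0.17, beside 0.01 over all genes tested.

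**Figure D1:**
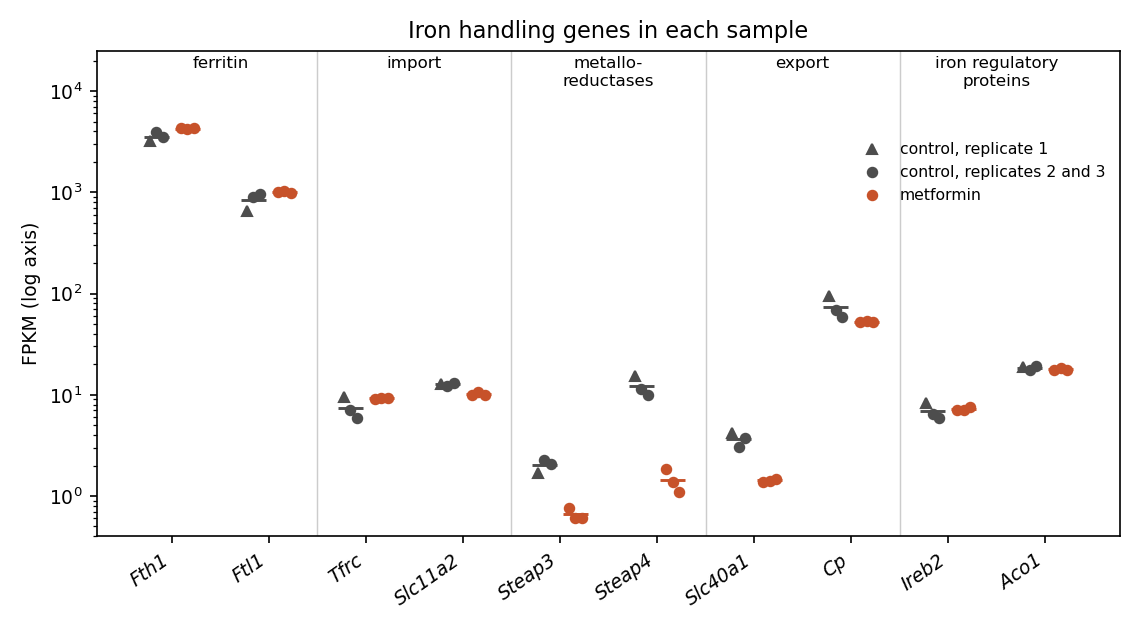
FPKM of the 10 iron handling genes in each sample on a log axis, grouped by role, with control samples in grey (replicate 1 as a triangle), metformin samples in orange and a line at each group's mean. Steap4, Steap3 and Slc40a1 have well separated groups with metformin lower, while Tfrc, Ireb2 and Aco1 overlap.

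Ferritin transcripts were the most abundant of the set and lay somewhat higher with metformin without reaching a call. Fth1, the heavy subunit that oxidizes iron on its way into the shell (ENSMUSG00000024661, chr19:9982703-9985092, plus strand), had 3174, 3907 and 3488 FPKM in the controls and 4282, 4210 and 4269 FPKM with metformin. It was the 10th most abundant transcript by mean FPKM in the controls and the 2nd with metformin, where the control mean includes control replicate 1, its lowest sample. The groups did not overlap, the ratio of means was 1.21 and the log2 fold change was 0.28 (SE 0.12).

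Ftl1, the light subunit that helps the iron core to form (ENSMUSG00000050708, chr7:45457944-45459884, minus strand), had 654, 901 and 952 FPKM in the controls and 1002, 1038 and 989 FPKM with metformin, a log2 fold change of 0.29 (SE 0.16). Control replicate 1 was the lowest sample for both subunits, and without it the differences were 0.20 (SE 0.11) for Fth1 and 0.12 (SE 0.08) for Ftl1, still with no overlap and no call. The control samples spread more than the metformin samples, with a coefficient of variation of 10.4% against 0.91% for Fth1 and of 19.1% against 2.49% for Ftl1.

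The balance of the subunits stayed within the replicate spread. The ratio of Fth1 to Ftl1 FPKM was 4.28 ± 0.60 (SD, n = 3) in the controls and 4.22 ± 0.14 (SD, n = 3) with metformin. Together they took 0.425% ± 0.057 (SD, n = 3) of all reads in the controls and 0.503% ± 0.006 (SD, n = 3) with metformin. The controls had 0.360%, 0.466% and 0.449%, so control replicate 1 lowered their mean, and the metformin samples had 0.504%, 0.496% and 0.508%. Ftl1 has 7 genes or pseudogenes with near-identical transcripts (at least 95% over at least 200 bases), the most abundant being Ftl1-ps1 with 99.6% identity and 13.03 FPKM, and the 7 sum to 18.6 FPKM beside 654 to 1038 FPKM for Ftl1 itself. The light subunit gene also overlaps Gm10252 on the other strand, at 1.26 FPKM, and whether the counting used strand is not stated.

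The importers had fold changes of opposite sign, and the lower one was called. Tfrc, the transferrin receptor (ENSMUSG00000022797, chr16:32608920-32632794, plus strand), had 9.52, 7.03 and 5.84 FPKM in the controls and 9.07, 9.25 and 9.39 FPKM with metformin. Control replicate 1 was above every metformin sample and the other controls were below them, so the groups overlapped and the log2 fold change was 0.30 (SE 0.16), not called. Without that library it was 0.47 (SE 0.08), called higher, with no overlap.

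Slc11a2, the divalent metal transporter DMT1 (ENSMUSG00000023030, chr15:100387898-100425072, minus strand), was lower with metformin. Its values were 12.7, 12.3 and 13.04 FPKM in the controls and 9.92, 10.6 and 9.84 FPKM with metformin, so that each metformin sample lay below each control. The control mean was 1.25 times the metformin mean and the log2 fold change was -0.30 (SE 0.08). This call was the weakest of the 4: it held in 1 of the 6 fits that leave out a sample, the one without control replicate 1, and was lost without any of the others, while the fold change stayed between -0.33 and -0.28. The overlapping gene on the other strand, Gm5475, was at 0.022 FPKM.

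Of the 10 genes Steap4 had the largest fold change, and Steap3, the other metalloreductase, was called lower as well. Steap4, a plasma membrane and endosomal reductase of iron and copper that is induced by inflammatory signals in fat and liver (ENSMUSG00000012428, chr5:7960457-7982213, plus strand), had 15.2, 11.3 and 9.998 FPKM in the controls and 1.85, 1.38 and 1.11 FPKM with metformin. These values rest on 875, 746 and 620 reads in the controls and 116, 95 and 68 reads with metformin. The lowest control was several times the highest metformin sample. The control mean was 8.40 times the metformin mean and the log2 fold change was -2.42 (SE 0.18), or -2.26 (SE 0.14) without control replicate 1. It moved from the 4093rd place by mean FPKM among all genes to the 10680th.

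Steap3, the endosomal ferrireductase that serves transferrin uptake in red cell precursors (ENSMUSG00000026389, chr1:120190757-120272705, minus strand), was the least abundant of the 10 genes. It had 1.68, 2.28 and 2.08 FPKM in the controls and 0.767, 0.602 and 0.611 FPKM with metformin, from 175 to 273 reads and 68 to 87 reads per sample. The groups did not overlap and the control mean was 3.05 times the metformin mean. The log2 fold change was -0.86 (SE 0.11), and -0.94 (SE 0.10) without control replicate 1, which was here the lowest control.

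The other STEAP genes had fold changes above 0, and 1 of them passed the test. Steap1, which lacks the part that binds NADPH in its relatives, had 11.1, 10.6 and 9.75 FPKM in the controls and 15.01, 17.4 and 15.7 FPKM with metformin, and rose by a log2 fold change of 0.57 (SE 0.09, adjusted p = 0.0062 by limma with Benjamini-Hochberg adjustment). Steap2, a reductase of iron and copper, had 9.82, 7.37 and 7.13 FPKM in the controls and 10.4, 10.6 and 10.7 FPKM with metformin (log2 fold change 0.36, SE 0.12, adjusted p = 0.0850 by limma), which did not pass the threshold although the groups did not overlap. The Steap2 change without control replicate 1, its highest control, was 0.49 (SE 0.06, adjusted p = 0.00084 by limma) and was called. Summed over the family the level was 32.7 ± 4.5 FPKM (SD, n = 3) in the controls and 28.7 ± 1.1 FPKM (SD, n = 3) with metformin. Within it Steap4 made up 36.8% ± 3.0 (SD, n = 3) in the controls and 5.05% ± 1.39 (SD, n = 3) with metformin. The ratio of Steap4 to Steap3 went from 6.27 ± 2.42 (SD, n = 3) to 2.17 ± 0.32 (SD, n = 3). Control replicate 1 raised the control mean of this ratio, with 9.06 against 4.95 and 4.80 in control replicates 2 and 3. The order by mean FPKM was Steap4, Steap1, Steap2, Steap3 in the controls and Steap1, Steap2, Steap4, Steap3 with metformin.

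**Figure D2:**
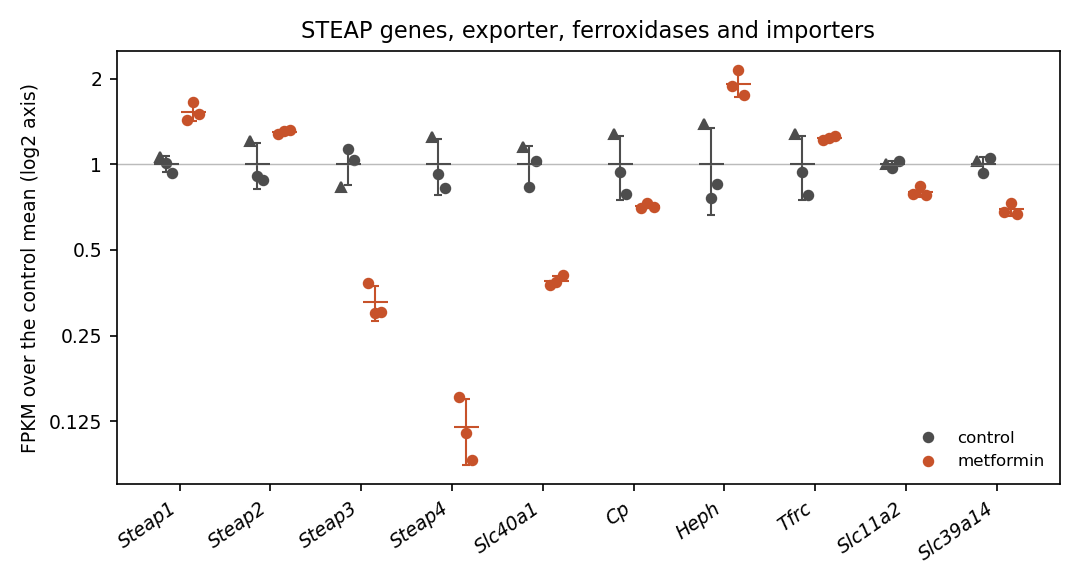
FPKM of the 4 STEAP genes and of transport genes in each sample, divided by the control mean and drawn on a log2 axis, with controls in grey (replicate 1 as a triangle) and metformin in orange, and bars for the mean and SD of 3 samples. Steap4, Steap3 and Slc40a1 lie well below 1 with metformin, while Steap1 and Heph lie above every control.

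The sequence just upstream of Steap4 is printed because this gene had the largest difference of the set. It is taken from the RefSeq promoter table (GRCm38.p6) and ends at the base before the gene's first base in GENCODE. Capitals mark TTCNNNGAA, the letters that STAT factors are known to bind, a motif picked after the values and the sequence had been seen.

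Steap4 upstream, chr5:7960222-7960456, plus strand: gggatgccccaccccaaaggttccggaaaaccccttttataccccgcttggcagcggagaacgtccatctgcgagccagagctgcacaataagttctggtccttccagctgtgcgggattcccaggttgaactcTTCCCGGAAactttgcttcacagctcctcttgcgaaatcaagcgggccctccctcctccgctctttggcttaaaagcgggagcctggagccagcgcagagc

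The motif begins 116 bases before the RefSeq start site. It was found in 1 of the 8 iron handling genes with a promoter in the table (14 promoters, 250 bases before to 50 after a start). It was in 8.30% of all 32851 promoters, a share of promoters and not of genes. Slc40a1 and Slc11a2, both called lower, had no promoter listed and were not searched. The antioxidant motif TGACNNNGC, searched on both strands, was in 0 of the same 8 genes and in 12.4% of all promoters. Sequence outside this window was not searched, so the 0 does not speak for it. A match is a string of letters and not a measured binding site.

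Both export genes lay lower in every metformin sample, and Slc40a1 was called. Slc40a1, ferroportin and the only known cellular exporter of iron (ENSMUSG00000025993, chr1:45908068-45926523, minus strand), had 4.19, 3.02 and 3.74 FPKM in the controls and 1.38, 1.41 and 1.49 FPKM with metformin. The metformin samples lay close together and below each control, the control mean was 2.56 times the metformin mean, and the log2 fold change was -0.93 (SE 0.11), or -0.85 (SE 0.10) without control replicate 1. Between 246 and 688 reads per sample stand behind these values.

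Cp, the copper ferroxidase ceruloplasmin (ENSMUSG00000003617, chr3:19957054-20009145, plus strand), had 94.5, 69.5 and 58.0 FPKM in the controls and 52.0, 53.9 and 52.5 FPKM with metformin. Each metformin sample lay below each control, but the controls spread widely (coefficient of variation 25.2% against 1.89%) and the log2 fold change of -0.45 (SE 0.17) was not called. Without control replicate 1, the highest sample, it was -0.26 (SE 0.08) and called lower, and it was also called without control replicate 3, at -0.61, and after the GC correction, at -0.46 (SE 0.10). The ratio of Cp to Slc40a1 FPKM was 20.4 ± 4.2 (SD, n = 3) in the controls and 37.1 ± 1.6 (SD, n = 3) with metformin, with no overlap. Cp overlaps Hps3 on the other strand, at 3.54 FPKM.

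The iron regulatory proteins showed no difference beyond the replicate spread in the full comparison. Aco1, which is cytosolic aconitase when it holds an iron-sulphur cluster and IRP1 when it does not (ENSMUSG00000028405, chr4:40143081-40198338, plus strand), had 18.9, 17.4 and 19.2 FPKM in the controls and 17.8, 18.4 and 17.4 FPKM with metformin, a log2 fold change of -0.05 (SE 0.08), or -0.03 (SE 0.06) without control replicate 1. Ireb2, or IRP2, which is broken down when iron is ample (ENSMUSG00000032293, chr9:54863789-54912530, plus strand), had 8.31, 6.39 and 5.87 FPKM in the controls and 7.11, 7.01 and 7.61 FPKM with metformin, a log2 fold change of 0.08 (SE 0.13). Without control replicate 1 the Ireb2 groups did not overlap and the change was 0.21 (SE 0.07), called higher, and over the fits that leave out each sample it ran from -0.01 to 0.21. The ratio of Aco1 to Ireb2 FPKM was 2.75 ± 0.50 (SD, n = 3) in the controls and 2.47 ± 0.17 (SD, n = 3) with metformin.

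In the controls the mean FPKM ran from Fth1 (3523) and Ftl1 (836) through Cp (74.0), Aco1 (18.5), Slc11a2 (12.7), Steap4 (12.2), Tfrc (7.46), Ireb2 (6.86) and Slc40a1 (3.65) to Steap3 (2.01). The ranges of Slc11a2 and Steap4 overlapped there, as did those of Tfrc and Ireb2. With metformin the order was the same for the first 5 genes, and Steap4 (1.45) came after Tfrc (9.24) and Ireb2 (7.25), level with Slc40a1 (1.42), whose range it overlapped, and above Steap3 (0.660).

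The genes with a hairpin in at least 1 transcript were split, on values that do not separate the forms. Of the 3 with a match in the 5′ region, Fth1 and Ftl1 had fold changes above 0 with no call and Slc40a1 was called lower. Of the 2 with a match in the 3′ region, Tfrc had a fold change above 0 with no call and Slc11a2 was called lower.

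**Figure D3:**
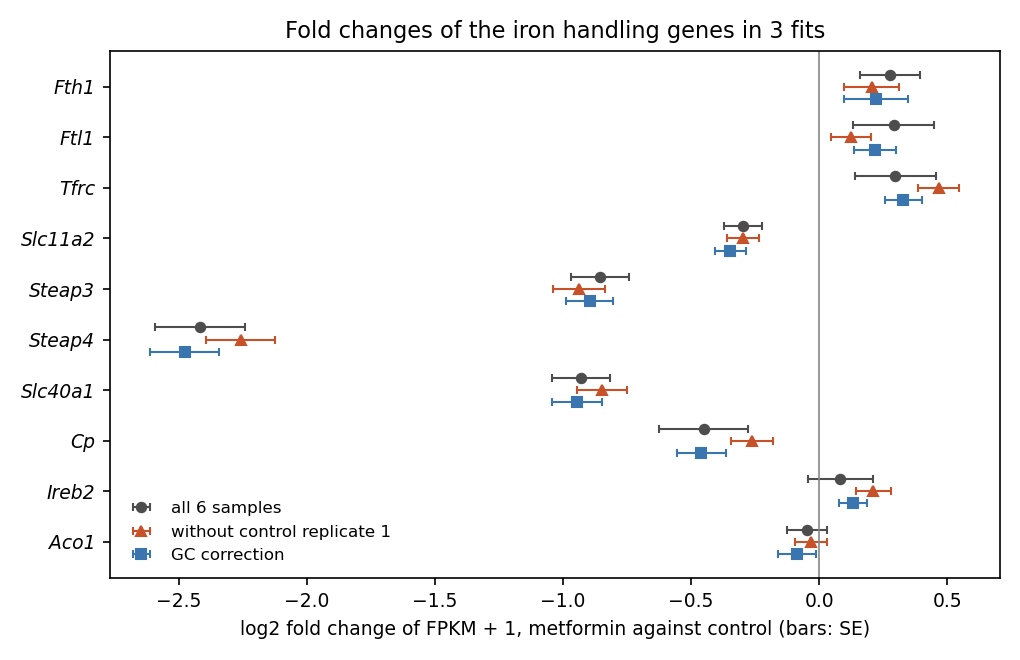
Log2 fold change of FPKM + 1, metformin against control, for the 10 genes with bars for the SE, from all 6 samples, without control replicate 1 and after a correction for GC content in each library. Steap4, Slc40a1, Steap3 and Slc11a2 lie below 0 in each fit, and Tfrc, Cp and Ireb2 are called without control replicate 1 and not in the full comparison.

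Beyond the 10 genes, 8 lists of iron and related genes chosen by function were counted, with 110 genes in the table and 91 tested. Of these 17 rose and 12 fell by limma with Benjamini-Hochberg adjustment, with a median log2 fold change of 0.02, where 13.2% of all genes tested rose and 9.28% fell. The counts moved with single samples: without control replicate 1 they were 29 and 27, with 2974 and 2587 of all genes. Without 1 of the other samples they went down to 9 and 4, in fits that called 927 higher and 486 lower of all genes. In voom on the recovered reads 16 rose and 13 fell, beside 1776 and 1237 of all genes. After the GC correction the fallen genes numbered 23, and the risen 20, beside 2433 and 2062 of all genes.

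Among genes of iron uptake and intracellular transport, 2 of 16 tested rose and 2 fell, beside 13.2% and 9.28% of all genes tested. The list's median log2 fold change was -0.08. Without control replicate 1 the counts were 4 and 8, beside 2974 and 2587 of all genes. Steap1 rose as above. Heph, the membrane ferroxidase hephaestin and relative of Cp, had 1.57, 0.865 and 0.963 FPKM in the controls and 2.13, 2.42 and 1.98 FPKM with metformin (log2 fold change 0.59, SE 0.14, adjusted p = 0.0295 by limma). Slc39a14, the zinc and iron importer ZIP14, had 20.1, 18.2 and 20.6 FPKM in the controls and 13.3, 14.4 and 13.1 FPKM with metformin (log2 fold change -0.50, SE 0.09, adjusted p = 0.0081 by limma). Lcn2, lipocalin 2, which binds the siderophores of bacteria, fell by 0.46 on the log2 scale (SE 0.10, adjusted p = 0.0217 by limma). The Heph call was lost without any 1 sample other than control replicate 1 (adjusted p of 0.0775 to 0.119 by limma), the Slc39a14 call without metformin replicate 1 or 3 (0.0544 and 0.0531), and the Lcn2 call without control replicate 2 or any metformin sample (0.0595 to 0.0957), while the Steap1 call held in all 6 such fits. Hephaestin overlaps the pseudogene Rpl17-ps8 on its own strand, at 2.39 FPKM.

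Among genes of iron sensing, ferritin turnover and systemic regulation, 1 of 7 tested rose and 0 fell by limma, beside 13.2% and 9.28% of all genes tested. At an unadjusted p under 0.05 by limma 1 rose and 1 fell, beside 2452 and 2088 of all genes. Voom called 1 and 0, beside 1776 and 1237 of all genes. Without control replicate 1 the counts were 2 and 0, beside 2974 and 2587 of all genes. Without metformin replicate 2 they were 0 and 0, beside 927 and 505 of all genes. Neo1, neogenin, a partner of hemojuvelin in hepcidin signalling, had 15.2, 12.5 and 12.99 FPKM in the controls and 19.7, 21.3 and 19.6 FPKM with metformin (log2 fold change 0.55, SE 0.10, adjusted p = 0.0098 by limma), a call lost without metformin replicate 2 (0.0588). Ncoa4, the receptor that sends ferritin to the lysosome, had 5.59, 4.43 and 4.95 FPKM in the controls and 4.17, 4.08 and 4.11 FPKM with metformin and did not pass (adjusted p = 0.142 by limma, and 0.124 without control replicate 1). Fbxl5, the iron sensor that marks IRP2 for breakdown, had 9.19, 6.804 and 6.82 FPKM in the controls and 5.77, 5.74 and 6.31 FPKM with metformin and did not pass (adjusted p = 0.136 by limma, and 0.0754 without control replicate 1). Hamp, which encodes hepcidin, the hormone that removes ferroportin from the membrane, had 0 reads in every sample. Ncoa4, Fbxl5 and Hamp are named for their known link to ferritin, IRP2 and ferroportin, after their values were seen.

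In haem synthesis and breakdown, 4 of 12 tested genes rose and 2 fell, beside 13.2% and 9.28% of all genes tested. The list's median log2 fold change was 0.24. Without control replicate 1 the counts were 7 and 3, beside 2974 and 2587 of all genes. Alad, the second enzyme of haem synthesis, had 7.55, 7.77 and 7.26 FPKM in the controls and 12.7, 11.7 and 11.4 FPKM with metformin (log2 fold change 0.60, SE 0.08, adjusted p = 0.0028 by limma). The biliverdin reductases also rose, Blvra by 0.52 (SE 0.11, adjusted p = 0.0183 by limma) and Blvrb by 0.48 (SE 0.07, adjusted p = 0.0049 by limma). Uros, uroporphyrinogen III synthase, had 3.29, 3.11 and 2.95 FPKM in the controls and 1.69, 2.12 and 1.94 FPKM with metformin (log2 fold change -0.50, SE 0.09, adjusted p = 0.0105 by limma). It overlaps Bccip on the other strand, at 20.1 FPKM, so without strand its reads cannot be told apart from those of its neighbour. The calls of Alad and Blvrb held in all 6 fits without 1 sample, that of Blvra was lost without control replicate 2 (0.0568), metformin replicate 1 (0.0888) or metformin replicate 2 (0.0864), and that of Uros without metformin replicate 1 (0.0585) or 3 (0.0512). Hmox1, haem oxygenase 1, which frees iron from haem, had 64.1, 94.5 and 97.8 FPKM in the controls and 116, 120 and 111 FPKM with metformin, with no overlap, and did not pass (log2 fold change 0.46, SE 0.17, adjusted p = 0.102 by limma). The Hmox1 change without control replicate 1, its lowest sample, was 0.26 (SE 0.06, adjusted p = 0.0122 by limma) and was called higher. It is named because the study follows it, after its value was seen.

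In iron-sulphur cluster assembly, 2 of 28 tested genes rose and 2 fell, beside 13.2% and 9.28% of all genes tested. The list's median log2 fold change was 0.02. Without control replicate 1 the counts were 4 and 8, beside 2974 and 2587 of all genes. Lyrm4, a subunit of the complex that builds clusters in mitochondria, rose by 0.40 (SE 0.11, adjusted p = 0.0449 by limma). Ciao1, a targeting factor of the cytosolic pathway, had 17.0, 18.5 and 18.7 FPKM in the controls and 13.01, 12.7 and 12.5 FPKM with metformin (log2 fold change -0.47, SE 0.08, adjusted p = 0.0069 by limma), and Narfl of the same pathway fell by 0.41 on the log2 scale (SE 0.10, adjusted p = 0.0307 by limma). The Ciao1 call held in all 6 fits without 1 sample. Those of Lyrm4 and Narfl are weaker: Narfl was lost without any 1 sample other than control replicate 1 (adjusted p of 0.0703 to 0.133 by limma), and Lyrm4 without control replicate 3 or any metformin sample (0.102 to 0.171). Lyrm4 overlaps the pseudogene Tmed10-ps on its own strand (11.1 FPKM), and Narfl overlaps Haghl on the other (4.19 FPKM).

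Iron-dependent enzymes held 6 genes that rose and 1 that fell among 13 tested, with a median log2 fold change of 0.32, beside 13.2% and 9.28% of all genes tested. Without control replicate 1 the counts were 7 and 2, beside 2974 and 2587 of all genes. Without 1 of the other samples 3 to 4 rose and 0 to 1 fell, beside 926 to 1571 and 486 to 1046 of all genes. Rrm2, the iron-holding subunit of ribonucleotide reductase, which makes the building blocks of DNA, had 9.37, 8.91 and 6.33 FPKM in the controls and 51.3, 50.4 and 46.4 FPKM with metformin (log2 fold change 2.47, SE 0.14, adjusted p = 0.0001 by limma). The collagen prolyl hydroxylase subunits P4ha1, P4ha2 and P4ha3 rose by 0.76 (SE 0.10, adjusted p = 0.0028), 0.51 (SE 0.08, adjusted p = 0.0056) and 0.49 (SE 0.10, adjusted p = 0.0173 by limma). The first of them went from 34.2, 29.6 and 28.2 FPKM in the controls to 53.3, 53.9 and 49.6 FPKM with metformin. The P4ha3 call was lost after the GC correction (adjusted p = 0.0555) and without control replicate 2 or any metformin sample (0.0595 to 0.0893), and the other 3 calls held in all 6 fits without 1 sample.

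Among the other transcripts known for an iron responsive element, 1 of 3 tested rose and 0 fell by limma, beside 13.2% and 9.28% of all genes tested. The counts were the same at an unadjusted p under 0.05 by limma (2452 and 2088 of all genes) and by voom (1776 and 1237). They were also the same without control replicate 1 (2974 and 2587). The gene that rose was Cdc42bpa, a kinase of the cytoskeleton, with 8.95, 7.36 and 7.74 FPKM in the controls and 13.2, 13.5 and 14.2 FPKM with metformin (log2 fold change 0.70, SE 0.09, adjusted p = 0.0028 by limma). Of the 5 copper supply genes tested 0 rose and 0 fell by limma, beside 13.2% and 9.28% of all genes tested, with a median log2 fold change of 0.05. Voom also called 0 and 0, beside 1776 and 1237 of all genes. At an unadjusted p under 0.05 by limma the copper supply counts were 0 and 1, beside 2452 and 2088 of the 12681 genes tested. The limma counts for copper supply without control replicate 1 were 2 and 1, beside 2974 and 2587 of all genes. Without control replicate 3 they were 0 and 1, beside 1571 and 1046 of all genes.

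The acute phase and inflammation genes, a group to which Steap4, Cp and Lcn2 are often counted in liver and fat, held 6 genes that fell and 1 that rose among 9 tested, with a median log2 fold change of -0.46, beside 9.28% and 13.2% of all genes tested. Without 1 sample 3 to 6 fell, beside 486 to 2587 of all genes. Without control replicate 1 the counts were 6 and 2, beside 2587 and 2974 of all genes. Of the 6 fits without 1 sample Lcn2 kept its call in 2, Nfkbia, an inhibitor of NF-κB, in 1 and Serpina3n, a serine protease inhibitor, in 4. Hp, haptoglobin, which captures free haemoglobin, had 268, 295 and 253 FPKM in the controls and 91.1, 90.5 and 83.6 FPKM with metformin (log2 fold change -1.61, SE 0.10, adjusted p = 0.0001 by limma). Orm1, orosomucoid, had 42.2, 79.0 and 61.7 FPKM in the controls and 16.4, 18.9 and 19.1 FPKM with metformin (log2 fold change -1.65, SE 0.22, adjusted p = 0.0028 by limma). C3, complement component 3, fell by 1.27 on the log2 scale (SE 0.11, adjusted p = 0.0005 by limma). Ccl2, a chemokine that draws monocytes, went the other way, from 0.337, 0.293 and 0.358 FPKM in the controls to 3.23, 4.07 and 3.74 FPKM with metformin (log2 fold change 1.81, SE 0.10, adjusted p = 0.0001 by limma). Its control values rest on 7, 7 and 8 reads. The control mean of 0.329 FPKM was under the limit of 0.5 FPKM, which Ccl2 passed through its metformin values (mean 3.68 FPKM). A gene with these control values could be tested only if it rose. The calls of Hp, Orm1, C3 and Ccl2 held in all 6 fits without 1 sample. Il6 had 0.586, 0.373 and 0.545 FPKM in the controls and 1.47, 0.737 and 1.10 FPKM with metformin, from 19 to 71 reads per sample. The groups did not overlap and it did not pass (log2 fold change 0.47, SE 0.15, adjusted p = 0.0691 by limma). Without control replicate 1 it was called higher (0.52, SE 0.17, adjusted p = 0.0476 by limma). It is named after its value was seen. The list was drawn up with the decrease of Steap4 known and is not independent evidence of a direction.

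**Figure D4:**
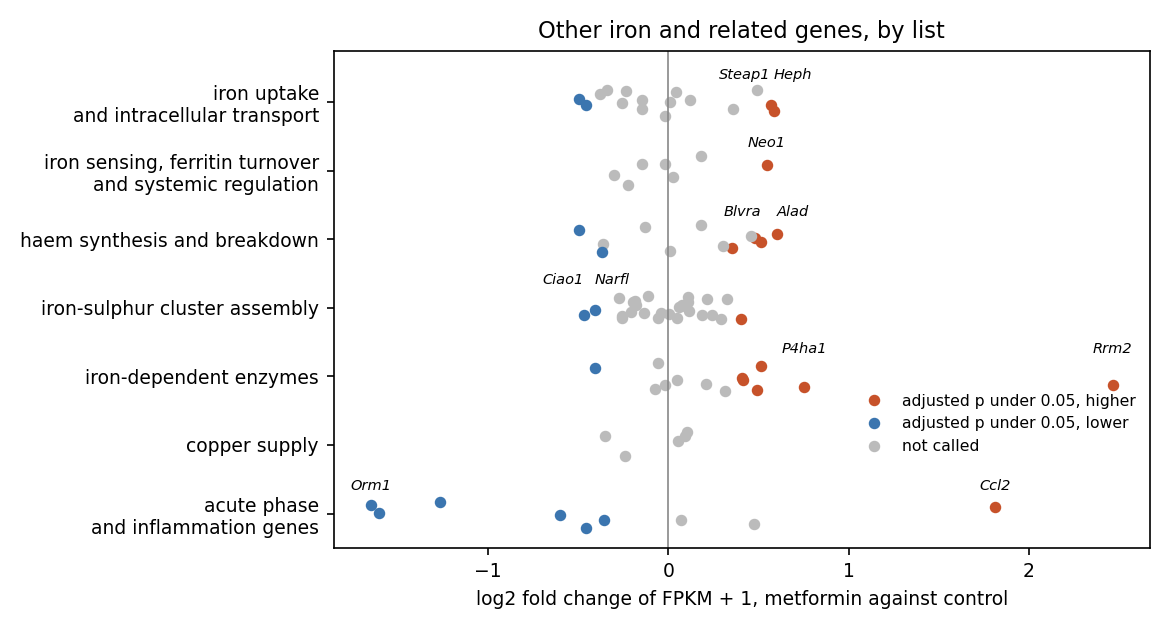
Log2 fold change of FPKM + 1, metformin against control, for the tested genes of 7 lists of iron and related genes, with 1 point per gene reported here, coloured by its call (limma, adjusted p under 0.05) and spread vertically only for legibility. Acute phase genes lie mostly to the left with Ccl2 far to the right, and the iron-dependent enzymes lie mostly to the right, with Rrm2 the farthest.

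The labelled cell type was checked against marker genes. All 10 osteoblast markers had more than 3 reads in some sample and passed the limit for testing, with Spp1 at 2680 to 8357 FPKM, Col1a1 at 927 to 2576 FPKM and Sp7 at 36.8 to 54.0 FPKM, and Alpl low at 2.44 to 3.84 FPKM. Markers moved in both directions with metformin: Ibsp, Spp1 and Dmp1 fell, with log2 fold changes of -1.60, -1.502 and -0.97 (adjusted p = 0.0006, 0.0005 and 0.0007 by limma), and Col1a1 and Col1a2 rose by 0.93 and 0.57 (adjusted p = 0.0230 and 0.0072 by limma). The Col1a1 call was lost without any 1 metformin sample (0.0749 to 0.0943) and the Col1a2 call without metformin replicate 1 or 2 (0.0515 and 0.0558). With no filter on low values the calls of Spp1, Col1a1 and Col1a2 were lost (0.198, 0.186 and 0.179 by limma). Without control replicate 1 the osteoblast counts were 3 higher and 4 lower, beside 2974 and 2587 of all genes. Sp7 was then called higher (0.27, adjusted p = 0.0225 by limma) and Bglap lower (-0.91, adjusted p = 0.0028 by limma). In the full comparison neither passed (adjusted p = 0.0586 and 0.735 by limma). Runx2 lay lower in every metformin sample and did not pass (adjusted p = 0.243 by limma). Bglap has a near-identical copy, Bglap2 (98.9% over 439 bases).

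Markers of other cell types are given beside the iron genes because macrophages and adipocytes express Slc40a1 and Steap4 strongly. The 8 macrophage and osteoclast markers summed to 245 to 273 FPKM in the controls and 150 to 163 FPKM with metformin, nearly all of it from Ctsk, a protease that fell by 0.74 on the log2 scale (adjusted p = 0.0021 by limma). Cd68 fell by 0.49 (adjusted p = 0.0102 by limma), a call lost without metformin replicate 1 (0.0594) or 3 (0.0503). Acp5 and Itgam had 0 reads in every sample and Ptprc had under 0.02 FPKM. The adipocyte markers summed to 7.86 to 12.2 FPKM in the controls and 8.64 to 9.72 FPKM with metformin, the chondrocyte markers to 26.6 to 39.9 and 28.7 to 30.6 FPKM, and the endothelial markers to 0.059 to 0.106 and 0.024 to 0.131 FPKM. Cebpa and Fabp4 made up most of the adipocyte sums, and Sox9 and Col2a1 most of the chondrocyte sums. These genes were not called in the full comparison. Without control replicate 1 Sox9 (-0.42), Cebpa (-0.40) and Col2a1 (-0.32) were called lower (adjusted p = 0.0018, 0.0146 and 0.0190 by limma), beside 2587 of all genes, and Fabp4 was not called. The part of these cell types in the iron results was not tested. In RNA from whole cultures, fewer cells that express a gene and less RNA per cell cannot be told apart.

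The 3 tested genes whose log2 values followed Steap4 most closely over the 6 samples were Tcta (Pearson r = 0.999), Cd276 (0.998) and Gpbp1l1 (0.997). Their log2 fold changes were -0.47, -0.27 and -0.32, against -2.42 for Steap4. The 6 points share their group difference and their libraries, so the likeness is a description.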

How the data were processed

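RNA sequencing of MC3T3-E1 cells was compared between osteogenic medium (3 samples) and osteogenic medium with metformin (3 samples). The deposited table names no unit. Its values are FPKM as made by the authors, since each value times the gene length is a whole multiple of 1 step per sample (100% of values above 0, tolerance 0.01 reads), and the library sizes match median-of-ratios scaling. The authors tested with DESeq2 1.20.0. The submitters' processing notes name Bowtie 0.12.2, mm8 and mm9, but 53499 of the 54532 gene positions equal GENCODE M21 (GRCm38), which was used here. The recovered reads cover counting error only. Other columns with values per sample numbered 0.

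Groups were compared with limma 3.58.1 (R 4.3.3), with trend, on log2(FPKM + 1), where the mean FPKM reached 0.5, adjusted by Benjamini-Hochberg at 0.05, with no block. The fit was tested on simulated data. Replicate numbers come from the labels, which do not state a pairing. Deviations of samples with the same number correlated at -0.053, 0.00026 and -0.055. This cannot decide the question, as the deviation of control replicate 1 followed GC content. The members and lists were chosen with earlier results of these data known. Named genes are the 10 members, up to 4 called genes per list with the largest absolute fold change (all where 5 or fewer were called), and the 3 genes most like Steap4. Some genes that this rule names are not reported here by name. Near-identical transcripts were found with BLAST+ 2.17.0. Alternatives were a pseudocount of 0.1, no filter, a mean of at least 1 FPKM, scaling by total reads, the replicate block, a GC correction within libraries (spline with 5 degrees of freedom, GC known for 99.9% of tested genes), both together, and leaving out each sample. Where 1 sample was left out, the 0.5 FPKM limit was applied anew to the samples kept, so the number of genes tested can differ from that of the full comparison. Voom on the recovered reads was chosen after seeing the data.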

Additional observations from a re-analysis of the deposited data

How the results depend on the processing

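The decreases of Steap3, Steap4 and Slc40a1 were called under every alternative run. Of the iron handling genes, 0 were called higher in the full comparison, 1 (Tfrc) after the GC correction (where Cp was also called lower), 1 after both that correction and the replicate block, and 0 to 2 when 1 sample was left out, the 2 being without control replicate 1; the lower calls numbered 3 to 5. With the replicate block alone 3 were called lower, Slc11a2 being lost. On a pseudocount of 0.1 the changes were larger, at -2.99 for Steap4, -1.47 for Steap3 and -1.29 for Slc40a1, and by voom -3.07, -1.61 and -1.34. Of all genes, 1670 were higher and 1177 lower. With the replicate block 1161 and 698 were, with the GC correction 2062 and 2433, with both (replicate block plus GC correction) 1703 and 1888, and leaving out 1 sample gave 926 to 2974 and 486 to 2587. In the wider iron lists 17 were higher and 12 lower. The replicate block gave 11 and 7, the GC correction 20 and 23, the replicate block with the GC correction 16 and 20, and leaving out 1 sample 9 to 29 and 4 to 27. Of the 29 wider calls 18 were kept with the replicate block, 26 with the GC correction, 21 with no filter and 14 to 29 without 1 sample, the fewest without a metformin sample (14, 15 and 16), with 0 changes of sign. The highest counts were those without control replicate 1, and the cause was not tested. The GC correction moved the median of all genes by -0.05 and scaling by total reads by -0.02. At these depths Steap3 and Steap4 with metformin rest on 68 to 116 reads per sample, the fewest of the 10 genes.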
